A study of Mus musculus with 30 samples.

Results

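Nfkbia, Nfkbib, Nfkbie, Tnfaip3, Tnip1 and Cyld encode inhibitors that hold the transcription factor NF-kB back, several of which NF-kB itself switches on. These 6 genes were taken by name from the 13456 genes that the deposited tables list in all, and each of the 6 is listed in all 7 tables. The study sequenced mRNA from 3 systems of mouse colon cells to follow Smad4 signalling, which serves both TGFB and BMP ligands, during inflammation. It holds 30 libraries in 10 groups of 3. The first system was colon epithelium of C57BL/6J mice, either Smad4+ controls or the knockout named Smad4ΔLrig1. The second was cultured colonocytes, labelled IMCfl/fl Smad4+ in every group, which were left untreated or received TNF, TGFB1 plus BMP2, or these 3 ligands at once, at doses and for times that the sources used here do not give. The third was colonoids, which are epithelial organoids, of the lines L42, L43 and L46, with each line in all 4 groups. They received vehicle, TNF at 100 ng/mL, TGFB1 at 3 ng/mL together with BMP2 at 10 ng/mL, or the 3 ligands combined. The sources used here do not give the strain of the colonoids, how long they were treated or the cells that the knockout driver reaches. What separates the colonocyte replicates is not stated, so p-values measure the spread between these samples.

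In resting cells the IkB proteins, encoded by Nfkbia, Nfkbib and Nfkbie, bind NF-kB dimers and keep them in the cytoplasm. When TNF binds its receptor, chains of ubiquitin assemble on the receptor complex and recruit the kinase IKK, which marks the IkB proteins for destruction and so frees NF-kB. A20 (Tnfaip3), its partner ABIN1 (Tnip1) and the deubiquitinase CYLD (Cyld) act on those ubiquitin chains and damp the signal, and the resynthesis of IkB alpha (Nfkbia) and A20 by NF-kB closes the loop.

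Recovered reads came to between 23.2 and 28.6 M per library in colon epithelium, between 21.6 and 42.9 M in colonocytes and between 42.2 and 61.7 M in colonoids. The deleted gene Smad4 stood at 132, 148 and 152 CPM (reads scaled to a common library size) in controls and 47.8, 59.2 and 46.1 CPM in the knockout. In the TNF table of the colonocytes only 3 of 8 epithelial markers were listed, with a summed level of 5.65 to 10.3 CPM over the colonocyte tables, and Epcam, Krt20, Vil1, Cdx2 and Lgals4 were among those not listed there. All 7 stromal and muscle markers were listed in these cells, at 6313 to 7431 CPM in sum. Defining epithelial markers were thus absent or near 0 in the colonocytes, and the name is kept here only as the label. All 8 epithelial markers were listed in colon epithelium and in colonoids. In bulk samples such as these, fewer cells of a type and less RNA per cell cannot be told apart.

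The promoters are shown because NF-kB binds a short sequence, the kB site, and because the members differ in how they moved with TNF. In GRCm38 the genes lie at chr12:55489410-55492647 on the minus strand (Nfkbia), chr7:28758251-28767512 on the minus strand (Nfkbib), chr17:45555703-45563169 on the plus strand (Nfkbie), chr10:19000910-19015657 on the minus strand (Tnfaip3), chr11:54910785-54962917 on the minus strand (Tnip1) and chr8:88697028-88751945 on the plus strand (Cyld), and each is annotated as protein-coding. The RefSeq promoter table (GRCm38.p6) matched all 6 by symbol. Below stand up to 200 bases upstream of the RefSeq start, 5′ to 3′ on the strand of the gene and cut short where an annotated exon of any gene begins, with matches to the kB consensus on either strand in capitals.
Nfkbia: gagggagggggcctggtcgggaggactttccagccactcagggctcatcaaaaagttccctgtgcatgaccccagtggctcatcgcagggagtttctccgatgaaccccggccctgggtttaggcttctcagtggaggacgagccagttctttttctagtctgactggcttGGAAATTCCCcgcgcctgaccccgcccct
Nfkbib: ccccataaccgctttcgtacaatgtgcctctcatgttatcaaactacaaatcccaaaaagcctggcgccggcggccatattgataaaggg
Nfkbie: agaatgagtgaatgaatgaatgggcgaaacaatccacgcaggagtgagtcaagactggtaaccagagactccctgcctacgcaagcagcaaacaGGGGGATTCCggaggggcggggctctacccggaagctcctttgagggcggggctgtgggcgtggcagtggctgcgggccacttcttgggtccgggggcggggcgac
Tnfaip3: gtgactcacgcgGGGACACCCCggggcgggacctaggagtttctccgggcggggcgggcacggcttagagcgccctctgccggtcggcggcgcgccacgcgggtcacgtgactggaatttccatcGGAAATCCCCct
Tnip1: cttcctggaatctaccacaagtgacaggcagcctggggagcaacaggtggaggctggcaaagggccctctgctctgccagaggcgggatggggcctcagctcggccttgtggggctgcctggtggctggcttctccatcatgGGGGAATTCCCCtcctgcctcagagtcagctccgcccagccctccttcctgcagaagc
Cyld: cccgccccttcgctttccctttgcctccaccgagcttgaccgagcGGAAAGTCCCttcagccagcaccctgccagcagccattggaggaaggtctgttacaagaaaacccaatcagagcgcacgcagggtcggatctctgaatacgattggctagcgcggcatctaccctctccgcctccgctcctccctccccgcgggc
The first line lies at chr12:55492648-55492847, the Nfkbib line at chr7:28766645-28766734, the Nfkbie line at chr17:45555500-45555699, the Tnfaip3 line at chr10:19015411-19015547, the Tnip1 line at chr11:54962941-54963140 and the Cyld line at chr8:88696828-88697027. The Nfkbib line of 90 bases and the Tnfaip3 line of 137 bases lie inside the annotated gene, in an intron of a longer transcript that starts further upstream, and the other 4 lines lie outside it.

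In windows of 300 bases around the RefSeq start, the kB consensus matched in 5 of the 6 members, and in 5.14% of all 27025 genes with such a window (4.51% of 32851 windows). Nfkbia had 1 match, from base -29 to base -20 counted from the start. Nfkbie had 1 as well, from -106 to -97. The upstream start of Tnfaip3 had 2, from -125 to -116 and from -12 to -3, and the other RefSeq start of this gene had none. In Tnip1 overlapping matches ran from -58 to -47. Cyld, which did not pass the test with TNF in colonocytes, had a match from -155 to -146, and Nfkbib, which rose in colonocytes, had none. In colonoids with TNF neither passed without the line as a block. With it Cyld was called higher (limma adjusted p = 0.0173) and Nfkbib was not (limma adjusted p = 0.0748). A looser form, GGGNNNNNCC, which contains the consensus, occurred in 50.8% of windows. A match is a description of the letters, and binding was not measured.

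**Figure D1:**
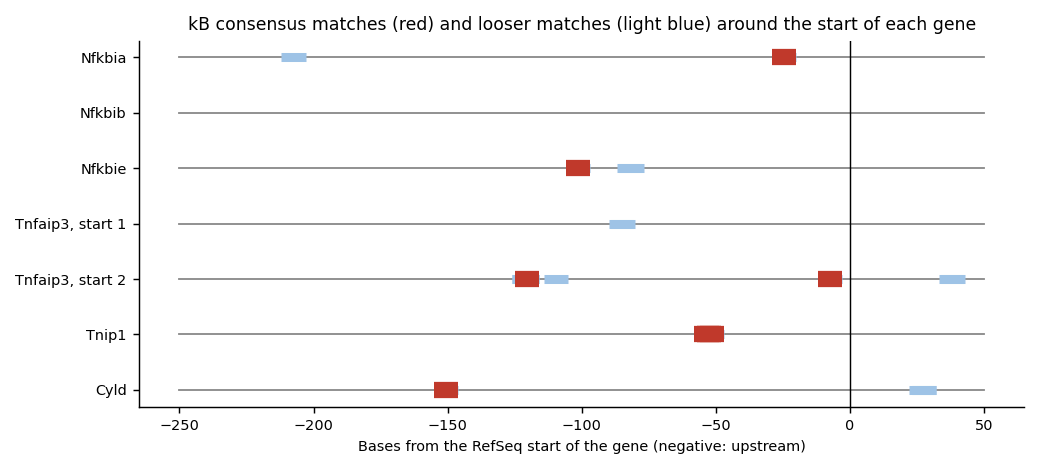
Position of kB consensus matches (red) and looser matches (light blue) on a scale of bases from the RefSeq start of each gene, with both starts of Tnfaip3 shown. Red blocks sit upstream of the start in Nfkbia, Nfkbie, Tnip1, Cyld and the second start of Tnfaip3, and the Nfkbib line carries none.

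Levels of different genes were compared as CPM per kilobase of the longest coding transcript, given as mean ± SD (n = 3). In control colon epithelium Nfkbia was highest at 58.1 ± 4.69, followed by Tnip1 at 27.5 ± 2.33, Nfkbib at 14.9 ± 1.36, Tnfaip3 at 9.78 ± 1.35 and Cyld at 8.85 ± 0.787, with the last pair within their spread. Nfkbie came last at 1.61 ± 0.101. The vehicle-treated colonoids had the same order of means, with Nfkbia at 77.5 ± 3.90, Tnip1 at 25.8 ± 1.12, Nfkbib at 12.5 ± 0.827, Tnfaip3 at 11.1 ± 1.46, Cyld at 6.95 ± 0.168 and Nfkbie at 1.46 ± 0.383 CPM per kilobase, where Nfkbib and Tnfaip3 were within their spread. Untreated colonocytes differed in that Tnip1 led at 37.9 ± 3.68, while Nfkbia at 22.4 ± 1.99, Cyld at 21.3 ± 0.551 and Tnfaip3 at 21.0 ± 2.69 could not be ranked beyond their spread. The length chosen bears on this, since per kilobase of all annotated exons Nfkbia (21.9 ± 1.95) lay above Cyld (13.6 ± 0.352) and Tnfaip3 (12.9 ± 1.64) in these cells, and Nfkbib (11.9 ± 0.786) above Tnfaip3 (6.81 ± 0.896) in vehicle-treated colonoids. In colonocytes Nfkbib at 7.14 ± 0.622 stood below every member but Nfkbie, which was again the lowest at 1.75 ± 0.123. Nfkbie rested on the fewest reads, from 80 to 121 per library in colon epithelium, from 94 to 1497 in colonocytes and from 126 to 390 in colonoids. For Nfkbib, 314 of 2169 exon bases overlap Ccer2, which no table lists, and 42 overlap Sirt2 on the opposite strand, and the sources used here do not give the strand setting of the counting.

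The comparison of TNF with untreated colonocytes asked which genes the cytokine moves in these cells. All 3 IkB genes rose, as did Tnfaip3 and Tnip1, and Cyld did not pass the test. These 5 of 6 compare with 534 of 11586 genes called higher over the whole table (4.61%) and 194 called lower (1.67%), by limma at an adjusted p under 0.05. The median change of the 6 was 1.38 on the log2 scale, and that of all genes tested was 0. Changes are differences of log2(CPM + 1), which understates those of genes with low values.

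Nfkbie, the IkB epsilon gene, had the highest fold. It stood at 4.15, 4.75 and 4.30 CPM in untreated colonocytes and at 38.3, 38.0 and 29.1 CPM with TNF. The lowest treated library was thus far above the highest untreated one, and the rise was 2.73 (SE 0.11, limma adjusted p = 1.23e-07 after Benjamini-Hochberg correction), rank 6 of all genes by p. Nfkbia, which encodes IkB alpha, went from 37.2, 39.1 and 32.7 to 179, 178 and 164 CPM. Treated and untreated libraries did not overlap, and the rise of 2.23 (SE 0.07, limma adjusted p = 1.33e-08) ranked 3. Nfkbib, encoding IkB beta, went from 15, 16.6 and 13.9 to 26.3, 24.9 and 23.7 CPM. Its libraries were also separate, with a smaller rise of 0.69 (SE 0.08, limma adjusted p = 3.63e-04).

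Tnfaip3 read 93.4, 85.2 and 109 CPM without TNF and 366, 361 and 384 CPM with it. All treated libraries lay above all untreated ones, and the rise was 1.95 (SE 0.07, limma adjusted p = 8.90e-08), rank 5. Tnip1 moved from 121, 125 and 103 to 211, 230 and 174 CPM, a rise of 0.81 (SE 0.10, limma adjusted p = 3.71e-04) with no overlap. The third TNF library was the lowest of its group for every member but Tnfaip3. Cyld was the exception, at 172, 181 and 176 CPM untreated and 182, 180 and 173 CPM with TNF. These ranges overlapped, and the 95% confidence interval of the difference, from -0.08 to 0.11, bounds any change at this depth (limma adjusted p = 0.893). Same-numbered libraries deviated together here, and with the replicate number as a block the same 5 members were called, against 11.5% of genes called higher (1337) and 8.8% lower (1019).

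**Figure D2:**
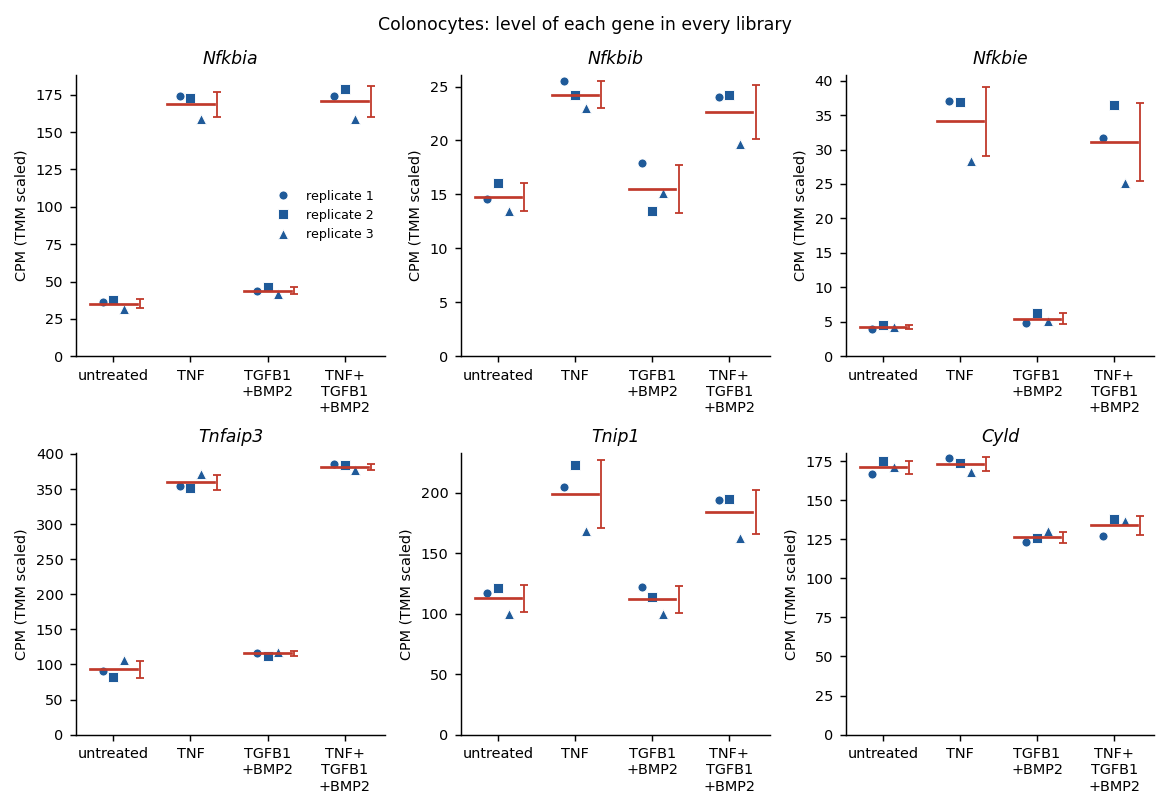
CPM of each gene (y axes, from 0, scaled by TMM over the 12 colonocyte libraries) in the 4 colonocyte groups; points are libraries, the red bar is the mean and the error bar 1 SD (n = 3). Nfkbia, Nfkbie and Tnfaip3 stand high in both groups with TNF, and Cyld is lower in both groups with TGFB1 and BMP2, near 127 and 134 CPM against 171 and 173.

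TGFB1 with BMP2, given without TNF, moved 3 of the 6 members in colonocytes, 2 higher and 1 lower, beside 1848 of 11620 genes called higher (15.9%) and 1665 lower (14.3%). This comparison and that of TNF share the untreated libraries. Nfkbia went from 36.6, 38.4 and 32.1 to 43.9, 46.4 and 42.2 CPM, a rise of 0.30 (SE 0.08, limma adjusted p = 0.00816). Tnfaip3 went from 91.9, 83.8 and 107 to 117, 113 and 119 CPM, a rise of 0.31 (SE 0.07, limma adjusted p = 0.00587). Both were small next to the rise with TNF, although treated libraries did not overlap untreated ones. Cyld, the deubiquitinase, stood at 169, 178 and 172 CPM untreated and 124, 127 and 132 CPM treated. Every treated library was below every untreated one, and Cyld fell by 0.44 (SE 0.05, limma adjusted p = 1.27e-05). Nfkbib (difference 0.06, adjusted p = 0.706), Nfkbie (0.28, adjusted p = 0.0867) and Tnip1 (-0.01, adjusted p = 0.917) did not pass. The groups of Nfkbib and Tnip1 overlapped, while those of Nfkbie did not, at 4.09, 4.67 and 4.21 CPM untreated and 4.89, 6.36 and 5.25 treated. Markers of other cell types moved with these ligands too. The endothelial marker Kdr ranged from 2.81 to 5.1 CPM without and from 19.3 to 20.9 CPM with them, and the other endothelial markers, Pecam1 and Cdh5, were not listed. Of the stromal and muscle markers Col1a1 (0.46) and Col1a2 (0.56) rose and Col3a1 (-0.49) fell, and the epithelial Krt8 rose to 4.24 ± 0.538 CPM. Their part in the changes of Nfkbia, Tnfaip3 and Cyld was not tested.

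Where TNF was already present, adding TGFB1 and BMP2 to colonocytes left Cyld as the 1 member called, against 16.4% of 11567 genes called higher (1892) and 15.6% lower (1802). Cyld stood at 175, 173 and 166 CPM with TNF and 126, 136 and 135 CPM with the 3 ligands. The groups did not overlap, and the gene fell by 0.37 (SE 0.05, limma adjusted p = 6.85e-05). Nfkbia was 172, 171 and 157 CPM with TNF against 172, 177 and 157 CPM with all ligands. The 2 sets nearly coincide, and the 95% confidence interval of the difference ran from -0.11 to 0.13 (limma adjusted p = 0.869). Tnfaip3 at 351, 347 and 369 against 381, 380 and 373 CPM did not overlap, yet its difference of 0.09 did not pass (limma adjusted p = 0.124). Same-numbered libraries deviated together in this table, and with the block Tnfaip3 was called higher (adjusted p = 0.0476) and Tnip1 lower (difference -0.11, adjusted p = 0.0256), while 21.9% of genes were called higher (2528) and 21.4% lower (2481). Tnip1 was also called, at -0.22 (limma adjusted p = 0.0342), without TNF replicate 3.

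TNF on top of TGFB1 and BMP2 raised the same 5 members in colonocytes that TNF raised alone, against 3.07% of 11434 genes called higher (351) and 1.06% lower (121). This comparison used the 12 colonocyte libraries together, scaled over the genes listed in all 3 tables. Nfkbia went from 43.7, 46.1 and 41.6 to 174, 179 and 159 CPM, a rise of 1.93 (limma adjusted p = 6.90e-12). Nfkbie went from 4.87, 6.32 and 5.18 to 31.7, 36.4 and 25.2 CPM, a rise of 2.30 (limma adjusted p = 4.88e-09). Tnfaip3 went from 117, 112 and 118 to 385, 384 and 377 CPM, a rise of 1.72 (limma adjusted p = 2.13e-11). None of these 3 pairs of groups overlapped, and the share of all genes without overlap was not counted here. Nfkbib and Tnip1 rose by 0.52 and 0.71 (limma adjusted p = 0.00502 and 2.23e-04), and Cyld at 0.08 did not pass (limma adjusted p = 0.444).

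Whether the TNF response itself differed with TGFB1 and BMP2 was tested as an interaction over the 12 colonocyte libraries. No member passed, and 1 of 11434 genes did (0.00875%), with 356 at an unadjusted p under 0.05, while edgeR called 0 with 363 at that unadjusted level. That gene was Ccl20, the chemokine in the study's title, whose TNF response was lower with the ligands (-1.34, SE 0.19, limma adjusted p = 0.0384). The response of Nfkbia was lower by 0.29 on the log2 scale as estimated (-0.29, 95% confidence interval -0.49 to -0.09, limma adjusted p = 1). Nfkbie (-0.42, interval -0.81 to -0.04) and Tnfaip3 (-0.23, interval -0.42 to -0.03) had estimates of the same sign that did not pass either. With the replicate number as a block, Nfkbia was called lower (-0.29, limma adjusted p = 0.0314), and the closing section gives the count of all genes. These samples share only a number. All 12 libraries correlated best with their own number, with correlations of same-numbered libraries from 0.05 to 0.53. Because the lowest was near 0, the 12 libraries were not treated as paired. Over the 4 colonocyte groups, the 2 groups with TNF held the higher levels of every member but Cyld. Nfkbib and Tnip1 overlapped between libraries with and without TGFB1 and BMP2, whether TNF was present or not, and Nfkbia and Nfkbie did so where it was.

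In colonoids TNF raised 2 of the 6 members, Nfkbia and Tnfaip3, in the fit without the line as a block. With the block, given below, Nfkbie, Tnip1 and Cyld passed too. Without it 14 of 11688 genes were called higher (0.12%) and 2 lower (0.0171%). The median change of the 6 members was 0.63, against 0 over all genes. Nfkbia went from 132, 128 and 142 CPM in vehicle-treated L42, L43 and L46 to 317, 443 and 361 CPM with TNF. All TNF libraries lay above all vehicle ones, and the rise was 1.46 (SE 0.12, limma adjusted p = 0.0109), rank 6. Tnfaip3 went from 58.6, 45.5 and 57.9 to 176, 165 and 143 CPM. Again there was no overlap, and the rise of 1.56 (SE 0.12, limma adjusted p = 0.0109) ranked 3. By line, the rise was 1.26, 1.78 and 1.34 for Nfkbia and 1.57, 1.83 and 1.29 for Tnfaip3 in L42, L43 and L46.

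The other 4 members did not pass without the block. Nfkbie was 5.08, 3.14 and 3.49 CPM with vehicle and 8.69, 7.39 and 6.46 CPM with TNF (difference 0.81, limma adjusted p = 0.369). Tnip1 was 85.5, 79.7 and 87.6 against 107, 123 and 118 CPM (0.46, limma adjusted p = 0.153). Cyld was 62.1, 59.2 and 62.4 against 75.7, 70.3 and 75.1 CPM (0.26, limma adjusted p = 0.498). In these 3 genes every TNF library lay above every vehicle library, as it did in 4.62% of all genes tested (540), whereas Nfkbib overlapped, at 27.0, 27.4 and 30.5 against 29.4, 40.4 and 36.4 CPM (0.30, limma adjusted p = 1).

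Since the same lines stand in both groups, the line was also used as a block. With it Nfkbia (adjusted p = 4.24e-05), Tnfaip3 (3.10e-05), Nfkbie (0.00162), Tnip1 (0.00293) and Cyld (0.0173) were called higher by limma, against 3.76% of genes called higher (439) and 2.39% lower (279). Nfkbib was not (adjusted p = 0.0748). The differences of Cyld by line were 0.28, 0.24 and 0.26, and those of Tnip1 were 0.33, 0.62 and 0.43, in the order L42, L43 and L46. Without the block, the calls turned on single libraries. Nfkbia was not called without vehicle L42, L43 or L46 (adjusted p = 0.0658, 0.0832 and 0.0591), nor Tnfaip3 without TNF L42, TNF L43 or vehicle L46 (adjusted p = 0.0741, 0.0516 and 0.0557), all by limma.

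**Figure D3:**
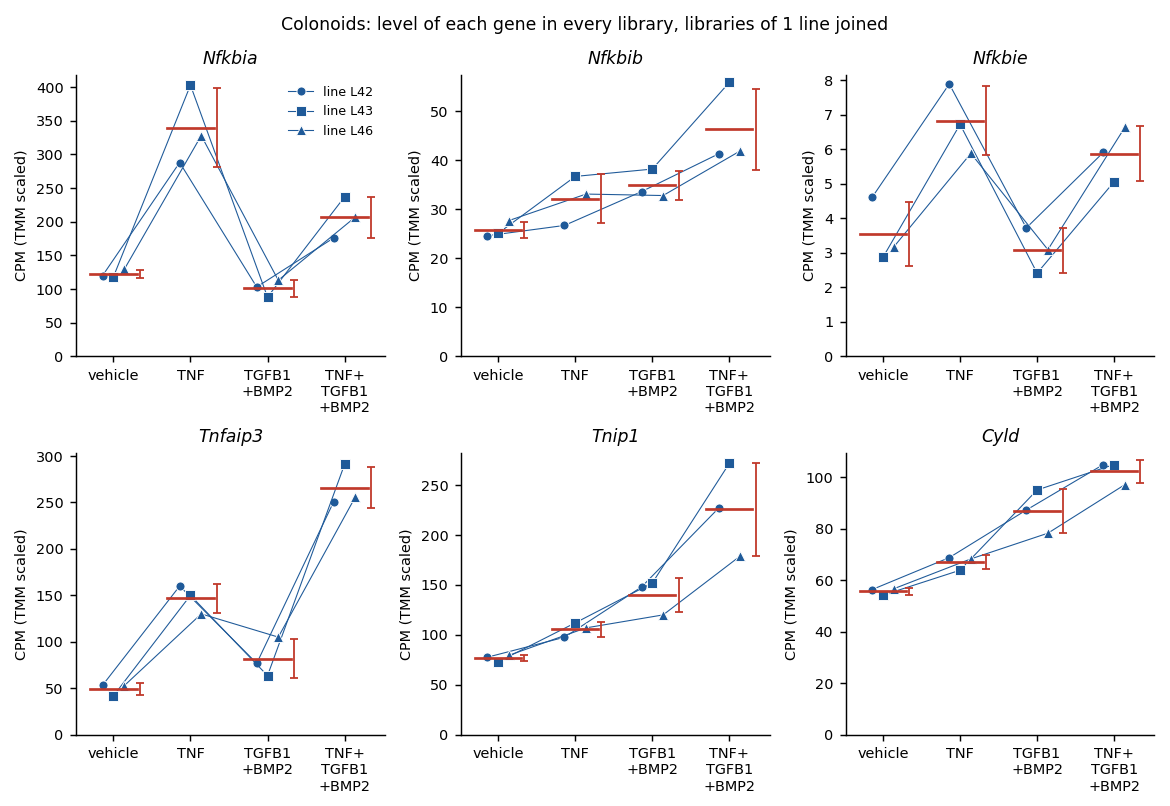
CPM of each gene (y axes, from 0, scaled by TMM over the 12 colonoid libraries) in the 4 colonoid groups; points are the lines, the red bar is the mean and the error bar 1 SD (n = 3). Nfkbia is highest with TNF alone, at 339 CPM, while Tnfaip3, Tnip1, Nfkbib and Cyld are highest with the 3 ligands, at 266, 226, 46.4 and 102 CPM.

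TGFB1 with BMP2 raised 4 of the 6 members in colonoids without TNF, where 28% of 11633 genes were called higher (3262) and 28.7% lower (3334). Tnip1, the ABIN1 gene, went from 77.2, 73.2 and 79.9 to 149, 152 and 121 CPM, a rise of 0.86 (SE 0.11, limma adjusted p = 0.00229). Cyld went from 56.1, 54.4 and 56.9 to 87.5, 95.1 and 78.5 CPM, a rise of 0.63 (SE 0.10, limma adjusted p = 0.00333). Tnfaip3 went from 52.9, 41.8 and 52.8 to 77.1, 63.5 and 105 CPM, a rise of 0.70 (SE 0.20, limma adjusted p = 0.022). Treated and vehicle libraries of Tnip1, Cyld and Tnfaip3 did not overlap. The share of all genes separated in this way was not counted here.

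Among the IkB genes, Nfkbib went from 24.4, 25.2 and 27.9 to 33.7, 38.2 and 32.9 CPM, a rise of 0.42 (SE 0.11, limma adjusted p = 0.0158). Nfkbia was 119, 118 and 130 CPM with vehicle and 104, 88.0 and 113 CPM with the ligands, with every treated library below every vehicle one. Its difference of -0.27 did not pass (limma adjusted p = 0.0744), and with the line as a block it was called lower (adjusted p = 0.0467), when 30.4% of genes were called higher (3540) and 31.7% lower (3683). Nfkbie overlapped, at 4.59, 2.88 and 3.18 against 3.73, 2.41 and 3.09 CPM (-0.15, limma adjusted p = 0.557).

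These colonoid calls depended in part on the scaling. Scaling by the total of listed reads moved the median of all genes by -0.28 and changed the split to 1997 higher and 5026 lower genes. Relative to that scale Tnip1 rose by 0.58 and Cyld by 0.35, Nfkbia fell by 0.55 (adjusted p = 0.0119), and Nfkbib (0.15, adjusted p = 0.216) and Tnfaip3 (0.43, adjusted p = 0.14) were not called by limma. The call of Nfkbib was also lost without TGFB1 and BMP2 L43 (adjusted p = 0.0504), vehicle L42 (0.0662) or vehicle L43 (0.0504), and that of Tnfaip3 without TGFB1 and BMP2 L42 (0.0561) or vehicle L43 (0.0737). Without TGFB1 and BMP2 L46, Nfkbia was called lower (-0.35, adjusted p = 0.0199). Epithelial markers moved with the ligands as well, with 7 of 8 called higher and their sum going from a range of 7085 to 9461 CPM to one of 17843 to 25806 CPM over the colonoid tables, and the part of such a shift in the changes of the members was not tested.

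With TNF present, TGFB1 and BMP2 moved 5 of the 6 members in colonoids, 4 higher and Nfkbia lower, where 26.4% of 11595 genes were called higher (3061) and 27.7% lower (3217). Nfkbia stood at 289, 404 and 328 CPM with TNF and 175, 234 and 206 CPM with the 3 ligands. The highest of the latter was below the lowest with TNF alone, and Nfkbia fell by 0.73 (SE 0.16, limma adjusted p = 0.0104), by 0.72, 0.78 and 0.67 in L42, L43 and L46. Tnfaip3 went the other way, from 160, 150 and 130 to 250, 287 and 255 CPM. All libraries with the 3 ligands were above those with TNF alone, and the rise was 0.84 (SE 0.11, limma adjusted p = 0.00235). Tnip1 went from 97.9, 112 and 107 to 225, 268 and 178 CPM, a rise of 1.06 (SE 0.16, limma adjusted p = 0.00323). Cyld went from 69.0, 64.2 and 68.4 to 104, 104 and 96.7 CPM, a rise of 0.59 (SE 0.08, limma adjusted p = 0.00269). Neither gene overlapped between the groups.

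Nfkbib rose by 0.50 (SE 0.17, limma adjusted p = 0.0426), from 26.8, 36.9 and 33.2 to 41.0, 55.3 and 41.7 CPM. This call was lost without TNF L42 (adjusted p = 0.127), TNF L46 (0.0903), or the libraries of L42 (0.0633) or L43 (0.121) with the 3 ligands. Nfkbie did not pass, at 7.92, 6.75 and 5.88 against 5.87, 5.00 and 6.61 CPM (-0.20, limma adjusted p = 0.331). Scaling by the total of listed reads moved the median of all genes by -0.27, with 1912 genes higher and 4890 lower. On that scale Nfkbia fell by 0.98, Tnfaip3 rose by 0.59, Tnip1 by 0.80 and Cyld by 0.33, and Nfkbib was not called (0.25, limma adjusted p = 0.225).

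TNF on top of TGFB1 and BMP2, tested over the 12 colonoid libraries, raised Nfkbia and Tnfaip3, where 15 of 11413 genes were called higher (0.131%) and 5 lower (0.0438%). Nfkbia went from 103, 88.0 and 113 to 176, 237 and 207 CPM, a rise of 1.02 (SE 0.14, limma adjusted p = 0.0211). Tnfaip3 went from 76.8, 63.5 and 105 to 251, 291 and 256 CPM, a rise of 1.72 (SE 0.17, limma adjusted p = 0.00331). Both were separate between the groups. The call of Nfkbia was lost without the TGFB1 and BMP2 libraries of L42 (adjusted p = 0.104) or L43 (0.133), the 3-ligand library of L43 (0.124) or the vehicle libraries of L42 (0.055) or L43 (0.0543), whereas Tnip1 was called higher without the 3-ligand library of L46 (0.83, adjusted p = 0.0342). With the line as a block, Nfkbie (0.76, adjusted p = 0.0224) and Tnip1 (0.67, adjusted p = 0.0292) were called too, against 0.754% of genes higher (86) and 1.47% lower (168).

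The interaction in colonoids called 0 of 11413 genes (0%) by limma, with 84 at an unadjusted p under 0.05, and edgeR called 0 with 76 at that level. For Nfkbia the estimate was -0.44 (95% confidence interval -0.89 to 0.01, limma adjusted p = 1). For Tnfaip3 it was 0.16 (interval -0.37 to 0.69) and for Tnip1 0.22 (interval -0.23 to 0.66). These intervals, from the fit without the line as a block, hold differences of either sign. With the block the estimates were -0.44, 0.16 and 0.22, and none passed. In L42, L43 and L46, TGFB1 with BMP2 changed Nfkbia by -0.20, -0.42 and -0.20 without TNF. With TNF present the changes were -0.72, -0.78 and -0.67. Those of Tnip1 were 0.94, 1.04 and 0.59 without and 1.19, 1.25 and 0.72 with TNF. Those of Tnfaip3 were 0.53, 0.59 and 0.98 against 0.64, 0.93 and 0.96. Over the 4 colonoid groups the order of Nfkbia was TNF at 339 ± 58.4 CPM, the 3 ligands at 207 ± 30.4, vehicle at 122 ± 6.15 and TGFB1 with BMP2 at 101 ± 12.6 (mean ± SD, n = 3), with no neighbours overlapping. Tnfaip3 ran from the 3 ligands at 266 ± 21.3 through TNF at 146 ± 15 and TGFB1 with BMP2 at 81.8 ± 21.2 to vehicle at 49.2 ± 6.47 CPM, also without overlap. Tnip1 ran from 226 ± 46.3 CPM with the 3 ligands through 140 ± 17.2 with TGFB1 and BMP2 and 106 ± 7.31 with TNF to 76.7 ± 3.34 with vehicle, and Cyld had the same order, from 102 ± 4.55 through 86.9 ± 8.38 and 67.0 ± 2.68 to 55.8 ± 1.35 CPM, with no neighbours of either gene overlapping. Nfkbib was highest with the 3 ligands at 46.4 ± 8.28 CPM, and its TNF libraries (32.2 ± 5.10) overlapped both those with TGFB1 and BMP2 (34.9 ± 2.91) and those with vehicle (25.8 ± 1.70). Nfkbie was 6.83 ± 1.01 CPM with TNF and 5.87 ± 0.792 with the 3 ligands, which overlapped, and 3.55 ± 0.932 with vehicle and 3.07 ± 0.654 with TGFB1 and BMP2, which overlapped each other. How many of all genes had no neighbouring groups overlapping was not counted.

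Read against each other within a library, Nfkbia and Tnfaip3 give a ratio that no library scaling can move, a pair chosen after its values were seen. Vehicle colonoids held 2.25, 2.82 and 2.46 Nfkbia reads per Tnfaip3 read, and TNF left this at 1.80, 2.69 and 2.52, overlapping vehicle. With TGFB1 and BMP2 the ratio was 1.34, 1.39 and 1.08, and with the 3 ligands 0.700, 0.815 and 0.808. Both groups with TGFB1 and BMP2 thus lay below both groups without. The colonocytes had no such order, with means of 0.386 ± 0.0801 untreated, 0.470 ± 0.0374 with TNF, 0.379 ± 0.0283 with TGFB1 and BMP2 and 0.446 ± 0.0228 with the 3 ligands (SD, n = 3). Control colon epithelium stood at 2.29, 2.09 and 2.01 and the Smad4 knockout at 1.03, 1.05 and 1.13, without overlap. An exact permutation test of 3 against 3 libraries cannot go below 0.10, so no p is given.

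**Figure D4:**
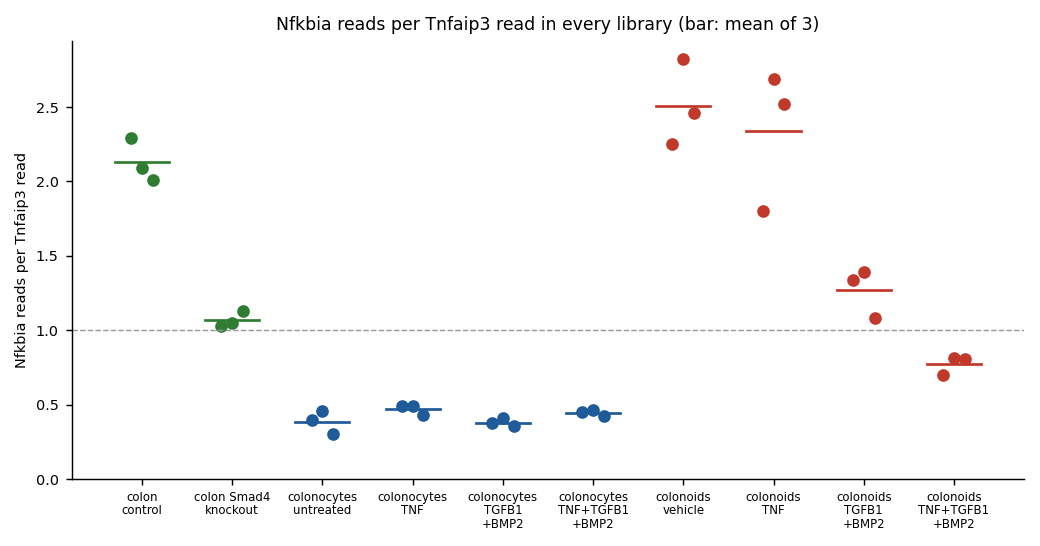
Nfkbia reads per Tnfaip3 read (y axis, from 0) in every library of the 10 groups; points are libraries, bars their mean and the dashed line marks 1. The knockout libraries lie at 1.03 to 1.13 under the controls at 2.01 to 2.29, and the colonoids lie at 1.80 to 2.82 without TGFB1 and BMP2 and at 0.700 to 1.39 with them.

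The knockout table of colon epithelium asked what differs in the tissue when Smad4 is deleted. Of the 6 members, Tnfaip3 rose and Tnip1 and Nfkbia fell, in a table where 19.8% of 11607 genes were called higher (2300) and 19.9% lower (2311). Tnfaip3 went from 36.4, 46.9 and 46.5 CPM in controls to 70.3, 76.0 and 59.1 CPM in the knockout, rising by 0.65 (SE 0.14, limma adjusted p = 0.00459). Tnip1 went from 74.6, 88.4 and 82.3 to 59.2, 53.7 and 51.4 CPM and fell by 0.57 (SE 0.11, limma adjusted p = 0.00286). The libraries of both genes separated by genotype, in opposite directions, and how many of all genes did so was not counted.

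Nfkbia stood at 83.4, 97.8 and 93.6 CPM in controls and 72.2, 80.2 and 66.9 CPM in the knockout. It fell by 0.32 (SE 0.11, limma adjusted p = 0.0378), a call that was lost without knockout 1 (adjusted p = 0.0557) or 3 (0.0927) and without control 2 (0.17) or 3 (0.112). Nfkbib (-0.18, adjusted p = 0.273), Nfkbie (-0.12, adjusted p = 0.516) and Cyld (0.20, 95% confidence interval -0.03 to 0.43, adjusted p = 0.149) overlapped between genotypes and did not pass. Cyld was 65.0, 70.3 and 77.6 CPM in controls and 77.4, 86.1 and 81.3 CPM in the knockout. Of the 11 leukocyte markers 6 were listed, summing to 43.4 to 60.6 CPM in controls and 41.2 to 53.6 CPM in the knockout, with Cd3d and Coro1a called lower, and of the 8 epithelial markers 3 were called lower and 1 higher. Vim was the 1 listed of 7 stromal markers and was called lower. Their part in the changes of the members was not tested.

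**Figure D5:**
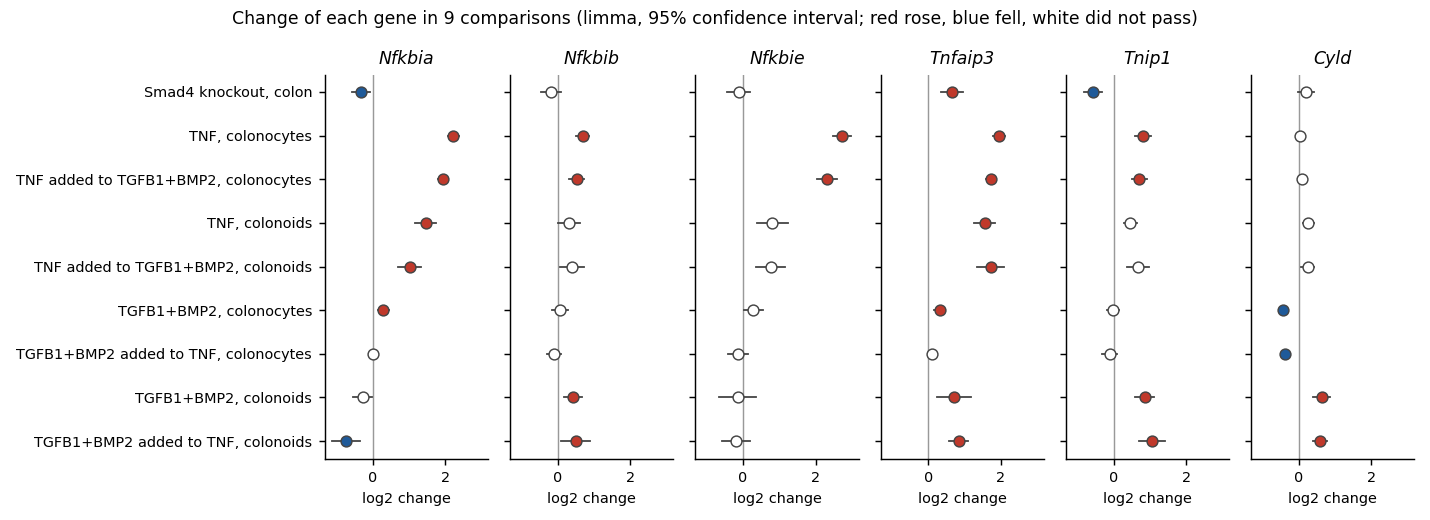
Difference of each gene in log2(CPM + 1) (x axes) in the 9 comparisons of groups, with its 95% confidence interval; red points rose, blue points fell and white points did not pass limma at an adjusted p under 0.05. Cyld is blue in colonocytes and red in colonoids with TGFB1 and BMP2, and Nfkbia is blue in the knockout and in colonoids given these ligands with TNF.

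The rest of the pathway was read from lists of genes grouped by their role. Of the NF-kB subunits and IKK genes, 5 of 9 rose and 0 fell with TNF in colonocytes (median 0.35, against 0 for all genes). Of all genes 4.61% were called higher there and 1.67% lower. Relb, a subunit of the slower NF-kB arm, went from 15.6 ± 2.18 to 56.6 ± 7.87 CPM (1.79, limma adjusted p = 3.48e-06), Nfkb2 from 109 ± 4.57 to 247 ± 13.6 and Nfkb1 from 89.9 ± 3.49 to 149 ± 4.39 CPM. In colonoids 0 of these 9 passed with TNF (median 0.17), and 3 with the line as a block, beside 0.12% and 3.76% of all genes higher. TGFB1 with BMP2 moved 5 of 9 higher in colonoids, where 28% of all genes were, and 2 of 9 in colonocytes, near the 15.9% of all genes, with 0 lower in either. Rela, the main activating subunit, went from 55.1 ± 5.86 to 99.2 ± 6.63 CPM in colonoids, and Ikbkg, the scaffold of IKK, from 69.0 ± 1.69 to 203 ± 54.5 CPM. In the knockout 1 rose and 1 fell, Rel (1.77 ± 0.261 to 4.11 ± 0.946 CPM) and Relb (36.6 ± 2.63 to 21.0 ± 1.81 CPM), in a table with 19.8% of genes higher and 19.9% lower. Of 3 other nuclear or atypical IkB genes, TGFB1 with BMP2 raised Bcl3 (1.16) and lowered Nfkbid (-0.90) in colonoids, beside 28% and 28.7% of all genes. In colonocytes 1 of 2 tested rose, Nfkbiz (0.38), beside 15.9%. With TNF 0 passed in either system. With the block 2 of 2 rose in colonocytes and 1 of 3 in colonoids, beside 11.5% and 3.76% of all genes. The knockout moved 0 of 3.

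The A20 partners and other restraint genes numbered 12. With TNF 3 rose and 0 fell in colonocytes (median 0.01), beside 4.61% and 1.67% of all genes. In TNF-treated colonoids 0 passed (median 0.14) and 2 rose with the line as a block, beside 0.12% and 3.76% of all genes higher. Tnip3, encoding ABIN3 of the same family as Tnip1, went from 5.00 ± 0.499 to 18.2 ± 2.35 CPM in TNF-treated colonocytes, and Zc3h12a, an RNase that degrades inflammatory mRNAs, from 12.6 ± 0.806 to 24.8 ± 1.48 CPM. In colonoids TGFB1 with BMP2 raised 5 of 12 without TNF and 4 with it, with 0 and 1 lower, beside 28% and 26.4% of all genes higher. The deubiquitinase gene Otud7b went from 75.3 ± 7.27 to 161 ± 18.3 CPM and Rnf11, a partner of A20, from 58.1 ± 5.38 to 159 ± 38.0 CPM without TNF. In colonocytes these ligands alone raised 5 of 12 and lowered 2, beside 15.9% and 14.3% of all genes. The lower ones were Tnip3 (-0.51) and Pdlim2 (-0.92), and Pdlim2 rose in colonoids (2.20). In the knockout 2 of 12 rose and 3 fell, about the share of all genes (19.8% higher and 19.9% lower), and Tnip3 went from 32.3 ± 1.18 to 68.2 ± 14.4 CPM, opposite in sign to Tnip1.

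Of 15 genes of the TNF receptor complex, 5 rose and 0 fell with TNF in colonocytes, beside 4.61% and 1.67% of all genes. In colonoids 1 rose (3 with the line as a block) and 0 fell, beside 0.12% (3.76% with the block) of all genes higher. The 1 in colonoids without the block was Birc3, a ubiquitin ligase at the receptor, which went from 52.8 ± 0.727 to 96.6 ± 4.43 CPM (0.86, limma adjusted p = 0.0109), and in colonocytes from 8.75 ± 1.11 to 35.0 ± 5.08 CPM. TGFB1 with BMP2 raised 7 and lowered 2 of 15 in colonoids, beside 28% and 28.7% of all genes. It raised 2 and lowered 0 of 14 in colonocytes, near the 15.9% of all genes, among them the receptor gene Tnfrsf1b, from 109 ± 9.25 to 238 ± 20.8 CPM. In the knockout 6 of 15 rose and 5 fell, beside 19.8% and 19.9% of all genes, and Tnfrsf1b went from 51.3 ± 3.83 to 85.1 ± 17.2 CPM.

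NF-kB target genes other than the members gave a view of the output that the members restrain. With TNF 14 of 15 tested rose in colonocytes (median 1.36, close to the 1.38 of the members), beside 4.61% of all genes. In colonoids 2 of 16 rose (median 0.69, beside 0.63), or 12 of 16 with the line as a block, against 0.12% and 3.76% of all genes. The colonocyte chemokine genes Ccl2 and Ccl20 went from 75.9 ± 6.38 to 1115 ± 116 and from 2.54 ± 0.580 to 56.0 ± 7.84 CPM. In colonoids the genes that passed without the block were Tnf itself, from 20.4 ± 4.26 to 53.9 ± 6.56 CPM, and Tapbp, of antigen loading. Adding TGFB1 and BMP2 to TNF raised 3 and lowered 6 of 16 in colonocytes (3 and 10 with the replicate block), beside 16.4% and 15.6% of all genes (21.9% and 21.4% with the block). It raised 4 and lowered 6 of 16 in colonoids, beside 26.4% and 27.7%. Ccl20 fell in both systems, from 53.7 ± 7.53 to 10.1 ± 0.752 CPM in colonocytes and from 21.0 ± 12.8 to 1.45 ± 0.140 CPM in colonoids. Side by side with it, Nfkbia in the same libraries differed by 0.01 in colonocytes and by -0.73 in colonoids. Without TNF, TGFB1 and BMP2 raised 5 and lowered 3 of 15 targets in colonocytes, beside 15.9% and 14.3% of all genes. In colonoids they raised 5 and lowered 2 of 13, beside 28% and 28.7%. The knockout raised 5 and lowered 2 of 16 targets, beside 19.8% and 19.9%. Of 8 TGFB and BMP target genes, 5 rose and 1 fell (Id2, -0.52) in colonocytes with TGFB1 and BMP2, beside 15.9% and 14.3% of all genes. In colonoids 6 rose and 0 fell with these ligands, beside 28% and 28.7%. The knockout had 5 of 7 lower and 2 higher, beside 19.9% and 19.8% of all genes.

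Across the 12 colonocyte libraries, the log2(CPM + 1) of the 5 TNF-raised members ran together, with Pearson correlations of 0.91 to 1.00 between them, while Cyld reached at most 0.17 with any of the others. The points share libraries and treatments, so these values only describe the pattern. The genes most like Nfkbia were Ccl2 (1.00), Nfkbie (1.00) and Nfkb1 (0.99), and those most like Tnfaip3 were Ccl7, Ccl2 and Csf1 (0.99 each). For Nfkbie they were Nfkbia, Ccl2 and Stx11, for Tnip1 Plscr1, Slain1 and Stx11, for Nfkbib Egr1, Slain1 and Plscr1, and for Cyld Eid1, Rbm28 and Wdr44.

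Colonoids grouped the members in another way over their 12 libraries. Nfkbia ran with Nfkbie (0.86) and less with Tnfaip3 (0.66), and its correlation was 0.13 with Tnip1 and -0.02 with Cyld. Tnip1, Nfkbib and Cyld ran together, at 0.96 for Tnip1 with Cyld, 0.94 for Tnip1 with Nfkbib and 0.86 for Nfkbib with Cyld. Tnfaip3 stood between, at 0.77 with Tnip1, 0.76 with Nfkbib, 0.74 with Nfkbie and 0.68 with Cyld. The genes most like Nfkbia were Ptplb (0.93), Nos2 (0.93) and Hdhd3 (0.91), where Nos2 is the inducible nitric oxide synthase. Tnfaip3 was most like Nod2, a sensor of bacterial cell walls (0.98), Birc3 (0.96) and Lix1l (0.95), and Tnip1 most like Cxcl11, Tbc1d10a and Hdac9. Nearest to Nfkbie were Slfn2, AW112010 and Gtf3c5, to Nfkbib Bspry, Sh3pxd2a and Tnip1, and to Cyld Itgb6, Rap1b and Cd47.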

How the data were processed

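Messenger RNA was sequenced in 30 mouse libraries, grouped by the submitters' titles. The authors deposited 7 tables, each with 2 groups of 3 libraries, which were normalized separately. Per the file headers and the values, the library columns hold a signal in CPM per effective library size. The tables also hold the authors' log2 fold changes and p-values, which are not used here. The submitters' processing notes name edgeR 3.4.2, HTSeq 0.5.4p5, SAMtools 1.3.1, TopHat2 2.1.0 and the build mm10, and the sources used here do not give the counting strand. Of the deposited values, 100% were whole multiples of 1 read within 0.05 read, so read counts were recovered for the alternatives and the joined tables.

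A count test had been planned. Because the values are normalized, limma 3.58.1 (trend, two-sided) was run in R 4.3.3 on log2(CPM + 1), for genes whose mean CPM reached 1, with Benjamini-Hochberg adjustment over all genes of a table and a threshold of 0.05. TNF added to TGFB1 and BMP2, and the interactions, used all 12 libraries of a system, joined over the genes listed in all 3 tables and scaled by TMM (edgeR 4.0.16). The alternatives were edgeR's quasi-likelihood test on the recovered reads, a pseudocount of 0.5, no filter on low values, scaling by total listed reads, the replicate number as a block and leaving out each library. Tests were tried on simulated data. Pairing came from the line in colonoids, and the deviations of same-line libraries had correlations of 0.74 to 0.89 for TNF, 0.31 to 0.59 for TGFB1 with BMP2, 0.28 to 0.59 for these added to TNF and 0.27 to 0.94 over all 12 libraries. In colonocytes, where only numbers are shared, they were 0.27 to 0.52 for TNF and 0.16 to 0.41 for TGFB1 and BMP2 added to TNF, and these were treated as paired. They went down to 0.05 for TGFB1 with BMP2 alone and over all 12 colonocyte libraries, which were not treated as paired. The members and lists were chosen with earlier results of these data known. Named list genes are among the 3 with the largest change past the threshold in each list and comparison. The share of all genes whose groups did not overlap was counted only for higher values with TNF against vehicle in colonoids. Genes most like a member are the 3 with the highest Pearson correlation with it over the 12 libraries of a system. Figures were drawn with matplotlib 3.10.9 in Python 3.11.15.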

Additional observations from a re-analysis of the deposited data

Results flagged for a closer look

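Cyld and Nfkbia moved in opposite directions in colonocytes and colonoids given TGFB1 with BMP2. Without TNF, all 3 colonocyte libraries of Cyld lay below the untreated ones (-0.44) and all 3 colonoid libraries above vehicle (0.63). With TNF present the differences were -0.37 in colonocytes and 0.59 in colonoids. Nfkbia was 0.30 higher in colonocytes and differed by -0.27 in colonoids, where it did not pass without the line as a block. These values stood out because every library of one system moved one way and every library of the other the opposite way. How many of all genes did so was not counted. Without TNF, 15.9% of all genes were called higher and 14.3% lower in colonocytes, and 28% and 28.7% in colonoids. With TNF present the shares were 16.4% and 15.6% in colonocytes and 26.4% and 27.7% in colonoids. The difference between the systems was not tested, since their tables were normalized separately. The sources used here do not give doses for the colonocytes or treatment times for either system. The epithelial markers, which were listed in full in colonoids and largely not listed in colonocytes, differ between the systems as well.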

How the results depend on the processing

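Over 66 member values, edgeR on recovered reads, a pseudocount of 0.5 and no filter each kept the direction and side of the threshold of all 66. With the replicate block 57 were kept and 9 passed in addition, and with scaling by total listed reads 59 were kept, 3 no longer passed, 1 passed in addition and 3 changed sign without having passed: Nfkbia with TGFB1 and BMP2 added to TNF in colonocytes (-0.07), Nfkbib with TGFB1 and BMP2 in colonocytes (-0.02) and Cyld with TNF in colonocytes (-0.02). With the block, the members called were 3 for TGFB1 and BMP2 added to TNF in colonocytes, 5 for TNF in colonoids, 4 for TNF added to TGFB1 and BMP2 in colonoids and 1 for the interaction in colonocytes (Nfkbia, -0.29, adjusted p = 0.0314 by limma). The block moved the genes called to 2356 for TNF in colonocytes, 718 for TNF in colonoids, 998 for TNF added to TGFB1 and BMP2 in colonocytes, 254 for the same in colonoids and 30 for the interaction in colonocytes. In the knockout, in TGFB1 with BMP2 against untreated colonocytes and over the 12 colonocyte libraries, the samples share only a number. The lowest correlations of same-numbered libraries there were -0.01, 0.05 and 0.05, and these samples were not treated as paired. Of their libraries 0 of 6, 5 of 6 and 12 of 12 correlated best with their own number. In the blocked TNF fit of colonocytes the pooled spread weighed 221 prior degrees of freedom, against 6.88 without the block. EdgeR called 13 genes for TNF added to TGFB1 and BMP2 in colonoids and 0 for the interaction in colonocytes, where a pseudocount of 0.5 gave 0 and scaling by total listed reads 2.

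Leaving out 1 library at a time gave 540 member values, of which 493 were kept, 24 no longer passed, 3 passed in addition and 20 changed sign. Genes called ranged from 2708 to 4915 for the knockout, 400 to 1217 for TNF in colonocytes, 1 to 8 for TNF in colonoids, 4177 to 7558 for TGFB1 and BMP2 added to TNF in colonoids, 279 to 570 and 6 to 30 for TNF added to TGFB1 and BMP2 in colonocytes and colonoids, and 0 to 10 for the interaction in colonocytes. Members called ranged from 1 to 2 for TGFB1 and BMP2 added to TNF in colonocytes, 0 to 2 for TNF in colonoids, 2 to 5 for TGFB1 and BMP2 in colonoids and 1 to 3 for TNF added to TGFB1 and BMP2 in colonoids. Values that changed sign without having passed ranged as follows. With TGFB1 and BMP2 added to TNF in colonocytes, Nfkbia ranged from -0.03 to 0.06 and Nfkbie from -0.26 to 0.00. With TGFB1 and BMP2 in colonocytes, Nfkbib ranged from -0.04 to 0.15 and Tnip1 from -0.10 to 0.06, and in colonoids Nfkbie from -0.26 to 0.01. Cyld with TNF in colonocytes ranged from -0.00 to 0.04. In the colonoid interaction Cyld ranged from -0.09 to 0.04, Nfkbib from -0.05 to 0.19, Nfkbie from -0.19 to 0.08 and Tnfaip3 from -0.01 to 0.35. The cause of these changes was not tested. Nfkbie, with as few as 80 reads in a library, is the member that depth limits most.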
